A study of Homo sapiens with 54 samples.

Results

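Messenger RNA of 8 human genes for secreted factors that act on blood vessels (ANGPT1, ANGPT2, ANGPTL4, VEGFA, VEGFB, VEGFC, PGF and PDGFA) was followed through castration and enzalutamide treatment in 54 tumours grown from LNCaP, a human prostate cancer cell line whose growth depends on androgens. The genes were chosen by name as angiogenic factors, around the large fall of ANGPT2 after castration in these same tumours, out of 60642 symbols in the table. That fall therefore selected the set. It is given below as a description with no test. Of the 8 genes, 4 passed the expression filter (at least 1 TPM, a transcript abundance relative to length and to the whole library, in at least 8 tumours), namely ANGPT2, VEGFA, VEGFB and PDGFA. Filter and member choice both used these values, so the 4 are not a sample of angiogenic genes.

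The tumours grew subcutaneously in male NOD-SCID mice, which have no functional T or B cells but keep their other blood cells, vessels and stroma, and each tumour came from its own mouse. PRE-CX mice (n = 9) were intact and had mock surgery, and their tumours were taken at the size limit set for ethical reasons. POST-CX tumours (n = 8) were taken 1 week after castration, at the low point of serum prostate-specific antigen (PSA), and CRPC tumours (n = 10) after the antigen had risen again or the tumour had reached its size limit. ENZS and ENZR mice were castrated and then given the antiandrogen enzalutamide by mouth at 10 mg/kg, starting when PSA began to rise. ENZS tumours (n = 12) were collected at the second low point of PSA. ENZR tumours (n = 15) were collected after PSA had risen again on the drug or the tumour had reached its size limit. All tumours descend from 1 cell line, and the 4 later groups all share castration. Tumour size and time of growth at collection can differ between PRE-CX and the later groups together with castration. The design cannot tell these apart.

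Vessels sprout when endothelial cells receive vascular endothelial growth factors through their surface receptors, and VEGFA is the main such ligand, induced in many cells by low oxygen through hypoxia-inducible factors (HIF). Angiopoietins tune the same vessels through the receptor TIE2, encoded by TEK: ANGPT1 stabilises the vessel wall, while ANGPT2 usually counters it and loosens the wall. VEGFB, VEGFC and PGF are relatives of VEGFA, PDGFA is a growth factor for mesenchymal cells, and ANGPTL4 is an inhibitor of lipoprotein lipase induced by fasting and by low oxygen. Here the tumour cells are human and the vessels belong to the mouse.

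Because HIF binding is part of the known regulation of this family, the 250 bases before an annotated transcription start are shown for 3 members, from RefSeq (GRCh38.p14). Capitals mark the HIF core, ACGTG or GCGTG on either strand. It was found once in ANGPTL4 (chr19:8363905-8364154, plus strand), starting at -234 from the transcription start. It was found once in VEGFB (chr11:64234334-64234583, plus strand), starting at -61. PDGFA has 4 windows in the table, with 0, 1, 1 and 3 cores, and the one shown is the outermost, with the most cores (chr7:520701-520950, minus strand, 5′ to 3′ of the gene), starting at -220, -75 and -57.
ANGPTL4: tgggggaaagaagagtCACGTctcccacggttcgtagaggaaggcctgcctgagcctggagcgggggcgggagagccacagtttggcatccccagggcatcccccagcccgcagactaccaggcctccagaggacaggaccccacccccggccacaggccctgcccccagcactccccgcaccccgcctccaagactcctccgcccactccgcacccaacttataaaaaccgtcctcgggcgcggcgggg
VEGFB: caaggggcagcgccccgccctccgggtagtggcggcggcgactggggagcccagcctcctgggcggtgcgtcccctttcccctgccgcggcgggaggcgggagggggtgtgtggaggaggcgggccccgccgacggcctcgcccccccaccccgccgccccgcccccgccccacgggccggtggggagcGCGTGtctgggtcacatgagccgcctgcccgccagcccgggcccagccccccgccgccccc
PDGFA: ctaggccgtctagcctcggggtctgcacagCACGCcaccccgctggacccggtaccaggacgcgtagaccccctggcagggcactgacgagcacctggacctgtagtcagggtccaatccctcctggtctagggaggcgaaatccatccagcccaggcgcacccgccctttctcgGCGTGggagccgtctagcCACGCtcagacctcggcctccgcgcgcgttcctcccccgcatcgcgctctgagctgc
A window was used for 5 members, with 9 windows in all. Of those not shown, the 2 PGF windows held 1 and 0 cores and the VEGFC window 1. The HIF core was in 43.2% of the 35116 promoter windows of the same length in that table, so its presence in these windows is common. The GC box GGGCGG, searched on both strands, was in 42.6%, and it was found 6 times in the VEGFB window, 2 times in ANGPTL4 and 1 time in the PDGFA window shown.

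Values were TPM of human genes after reads of human and mouse had been quantified together. TPM of the human genes summed to between 12.1% and 97.5% of 1000000 per tumour, with a median of 89.9%. A total under 70% was found in 4 tumours (POST-CX mouse 91 with 27.9%, POST-CX mouse 48 with 59.7%, ENZR mouse 87 with 12.1% and ENZR mouse 103 with 66.7%), and a low total lowers every human gene in that tumour alike. Values after rescaling each tumour to 1000000 human TPM are therefore given beside several of the results. The prostate and epithelial markers KLK3, KLK2, FOLH1, HOXB13, KRT8, KRT18, EPCAM and TMPRSS2 each had a group median of at least 1 TPM in each of the 5 groups. Of 12 endothelial markers, the defining genes PECAM1, CDH5, KDR, TIE1, ROBO4 and CLDN5 had a median of 0 TPM over the 54 tumours and never exceeded 0.31 TPM. Of the other 6, TEK reached 0.14, EMCN 0.59, ENG 0.70, ESAM 5.10, VWF 7.30 (median 1.29) and EGFL7 57.59 TPM (median 26.7).

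ANGPT2 was abundant in tumours of intact mice and low in nearly every other tumour. It lies on chromosome 8, 6499632 to 6563245 (GRCh38), and is protein-coding. In PRE-CX its level ran from 68.6 to 266.92 TPM with a median of 96.7, a mean of 116.8 ± 64.9 TPM (SD, n = 9). In POST-CX it ran from 1.01 to 21.9 TPM with a median of 4.88, a mean of 7.18 ± 7.42 TPM (SD, n = 8). All 8 POST-CX tumours lay below the lowest PRE-CX tumour, and the ratio of the group means was 16.3. The log2 difference of TPM + 1 was -4.21 (SE 0.55), against a median of -0.05 for all genes. With rescaled values the difference was of like size, -4.06.

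The low level was not undone at relapse. In CRPC, ANGPT2 ranged from 1.48 to 24.19 TPM with a median of 4.41 (mean 6.27 ± 6.56, SD, n = 10). In ENZR it ranged from 0.48 to 21.0 TPM with a median of 2.23 (mean 5.75 ± 6.67, SD, n = 15). All 10 CRPC and all 15 ENZR tumours lay below the whole PRE-CX range. The log2 difference from PRE-CX was -4.20 (SE 0.52) in CRPC and -4.55 (SE 0.47) in ENZR, and CRPC differed from POST-CX by 0.01 (SE 0.53), all given without a test.

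ENZS held 1 exception. ANGPT2 there ran from 0.70 to 83.94 TPM with a median of 9.10 (mean 14.1 ± 22.6, SD, n = 12). The highest value, in ENZS mouse 17, lay inside the PRE-CX range, and the next highest in the group was 18.32 TPM. The other 11 tumours lay below the PRE-CX range. The log2 difference from PRE-CX was -3.66 (SE 0.49), again as a description.

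By group mean the order was PRE-CX, ENZS, POST-CX, CRPC and ENZR, and by median the order was the same. The last 4 overlapped widely. Among the groups that the choice of the gene did not use, ANGPT2 did not pass the test: ENZS minus CRPC was 0.54 (SE 0.48, limma adjusted p 0.544), ENZR minus ENZS was -0.89 (SE 0.43, limma adjusted p 0.440) and ENZR minus CRPC was -0.35 (SE 0.46, limma adjusted p 0.787). The 95% intervals ran from -0.43 to 1.5, from -1.75 to -0.02 and from -1.27 to 0.57, so a difference of more than 1 log2 unit lies within each of the 3 intervals. Without ENZS mouse 17, ENZS minus CRPC was 0.23 (limma adjusted p 0.795).

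**Figure D1:**
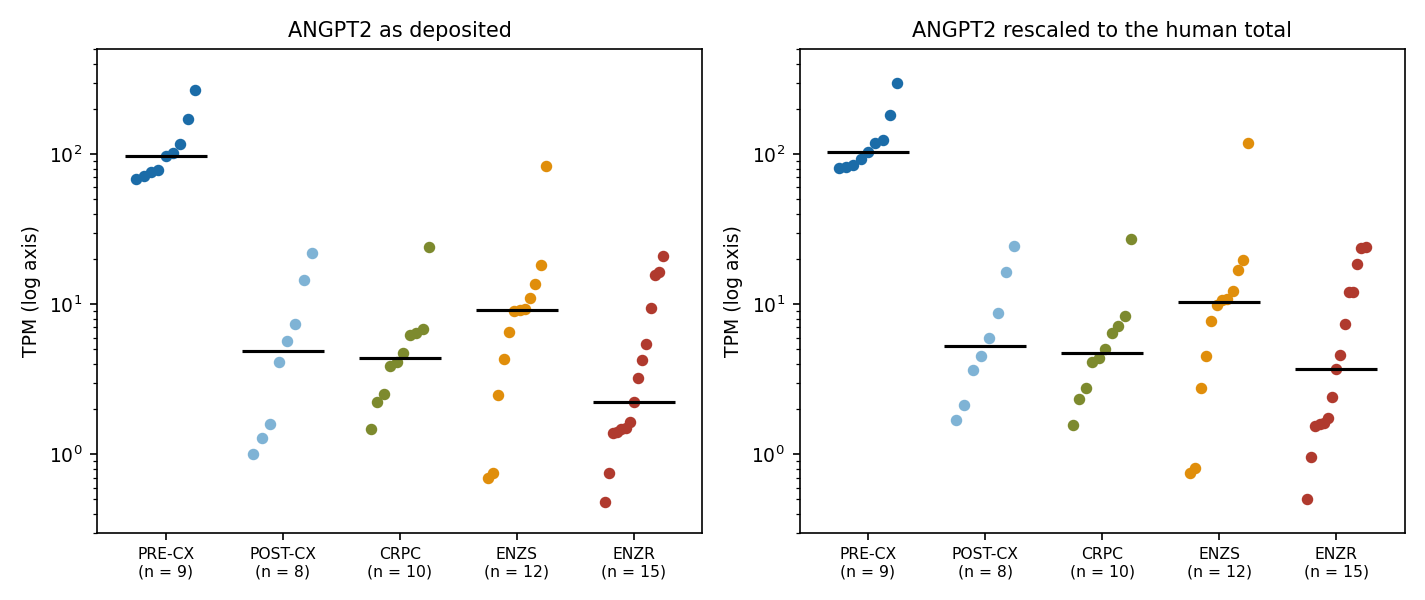
ANGPT2 in each tumour (points, sorted within a group) with the group median (line), in TPM on a log axis, as deposited (left) and rescaled so that human genes sum to 1000000 (right). PRE-CX tumours lie at 68.6 TPM or above as deposited, and of the other groups only ENZS mouse 17 (83.94 TPM) reaches them.

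Genes known to be induced by androgens were set beside the fall of ANGPT2, whose cause was not tested. KLK3, which encodes PSA, stood at 4156 ± 1465 TPM in PRE-CX (SD, n = 9), at 1343 ± 734 TPM after castration (POST-CX, n = 8) and at 4308 ± 1217 TPM in CRPC (n = 10). CRPC minus PRE-CX was 0.09 for KLK3 (SE 0.60, limma adjusted p 0.970, 95% interval -1.10 to 1.28). KLK3 was singled out after its values were seen. FKBP5, a co-chaperone gene induced by androgens, stood at 161 ± 96.5 TPM in PRE-CX (SD, n = 9) and 30.9 ± 14.7 TPM in CRPC (n = 10), a log2 change of -2.28 with SE 0.38 and an adjusted p of 2.49e-05 in limma. FKBP5 had been 25.1 ± 9.46 TPM in POST-CX (SD, n = 8). For ANGPT2 and FKBP5 the CRPC mean thus lay near the POST-CX mean and for KLK3 near the PRE-CX mean, as levels side by side with no test of the likeness.

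Of 28 androgen-induced genes, 11 were lower in CRPC than in PRE-CX, 19 in ENZS and 23 in ENZR, and none was higher in these 3 comparisons. Over all genes tested, 1.87% were lower in CRPC, 8.18% in ENZS and 11.5% in ENZR. The median log2 difference of the list was -0.96, -1.18 and -1.84 in the same order, against 0.11, 0.26 and 0.07 for all genes. With rescaled values 20, 21 and 23 genes of the list were lower, where 1017, 2363 and 2398 of all 17131 genes were lower. The 3 comparisons share the PRE-CX tumours. The falls were large for ORM1, an acute-phase plasma protein gene (-4.24, SE 0.23, limma adjusted p 1.94e-22 in CRPC), whose reads may be shared with its paralog ORM2, and for HPGD, the prostaglandin-degrading dehydrogenase (-3.61, SE 0.25, limma adjusted p 1.26e-17 in CRPC). Between POST-CX and PRE-CX the list's median was -1.55, as a description.

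The genes most like ANGPT2 were looked for on log2(TPM + 1) by 2 measures, over the 54 tumours and with no p. By Spearman's rho over all tumours the first 5 were ISG20 (0.72), ELOVL7 (0.68), AGR2 (0.67), MAF (0.66) and KLHL29 (0.66). ELOVL7, a fatty acid elongase, stood at a mean of 63.3 TPM in PRE-CX and 9.83 TPM in POST-CX, and the transcription factor MAF at 24.9 and 4.81 TPM. By Pearson's r of the deviations from the group means, which leaves the step out, the first 5 were others: GPNMB (0.74), NLRC5 (0.69), UPP1 (0.67), AC090192.2 (0.66) and GEM (0.66). Without ENZS mouse 17, a setting chosen after seeing the data, these 5 had an r between 0.59 and 0.70. GPNMB, a membrane glycoprotein, was 21.1 TPM in PRE-CX and 22.0 TPM in POST-CX. VEGFA had a rho of 0.10 and a deviation r of 0.09 with ANGPT2. These points share tumour, depth and human share.

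VEGFA was the most abundant member in all groups by mean TPM, and it did not share the lasting fall. It lies on chromosome 6, 43770211 to 43786487 (GRCh38). In PRE-CX it ranged from 78.16 to 368.0 TPM with a median of 137.6 (mean 157.9 ± 88.1, SD, n = 9). In POST-CX it ranged from 24.64 to 113.09 TPM with a median of 70.1 (mean 64.1 ± 29.2, SD, n = 8). Of the 8 POST-CX tumours, 6 lay below the PRE-CX range, among them the 2 tumours of low human share (mouse 48 with 24.64 and mouse 91 with 26.91 TPM). The log2 difference was -1.29 (SE 0.37), given with no test because the choice of the set used this comparison.

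In the later groups VEGFA overlapped with PRE-CX. CRPC tumours ranged from 48.33 to 209.61 TPM with a median of 99.3 (mean 112.8 ± 52.2, SD, n = 10). ENZS tumours ranged from 49.62 to 332.48 TPM with a median of 94.7 (mean 136.0 ± 87.3, SD, n = 12), and ENZR tumours from 22.6 to 314.92 TPM with a median of 117.3 (mean 151.3 ± 83.2, SD, n = 15). None of the 3 differed from PRE-CX by the test: the log2 difference was -0.46 in CRPC (SE 0.35, limma adjusted p 0.525), -0.29 in ENZS (SE 0.33, limma adjusted p 0.521) and -0.14 in ENZR (SE 0.32, limma adjusted p 0.783). The 95% intervals reached down to -1.15, -0.95 and -0.77. The sign in ENZR turned to 0.11 with rescaled values.

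VEGFB, which signals through VEGFR1 and has a weak effect on vessel growth, had a narrower range. It lies on chromosome 11, 64234584 to 64239264 (GRCh38), and its promoter window with a single HIF core is shown above. PRE-CX tumours ran from 28.49 to 92.76 TPM with a median of 47.6 (mean 52.4 ± 19.6, SD, n = 9), and POST-CX tumours from 10.77 to 44.96 TPM with a median of 27.6 (mean 27.5 ± 12.0, SD, n = 8). Of the POST-CX tumours 4 of 8 lay below the PRE-CX range. The log2 difference was -0.96 (SE 0.28), with no test.

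VEGFB was 40.3 ± 11.8 TPM in CRPC (SD, n = 10, range 24.57 to 59.66, median 39.7), 53.4 ± 12.1 TPM in ENZS (n = 12, range 34.61 to 71.2, median 54.6) and 37.3 ± 15.7 TPM in ENZR (n = 15, range 6.13 to 67.22, median 40.0). Against PRE-CX it was -0.34 in CRPC (SE 0.27, limma adjusted p 0.547), 0.08 in ENZS (SE 0.26, limma adjusted p 0.842) and -0.55 in ENZR (SE 0.25, limma adjusted p 0.0834). The ENZR difference passed when each tumour was centred on its median gene (-0.61, limma adjusted p 0.00230). It was smaller and did not pass with rescaled values (-0.32, limma adjusted p 0.112) or without the 4 tumours of low human share (-0.36, limma adjusted p 0.0880). The ENZR tumour at 6.13 TPM was mouse 87, that with the lowest human share. ENZS was above CRPC by 0.42 (SE 0.25, limma adjusted p 0.325), which passed only with rescaled values (0.49, limma adjusted p 0.0262).

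**Figure D2:**
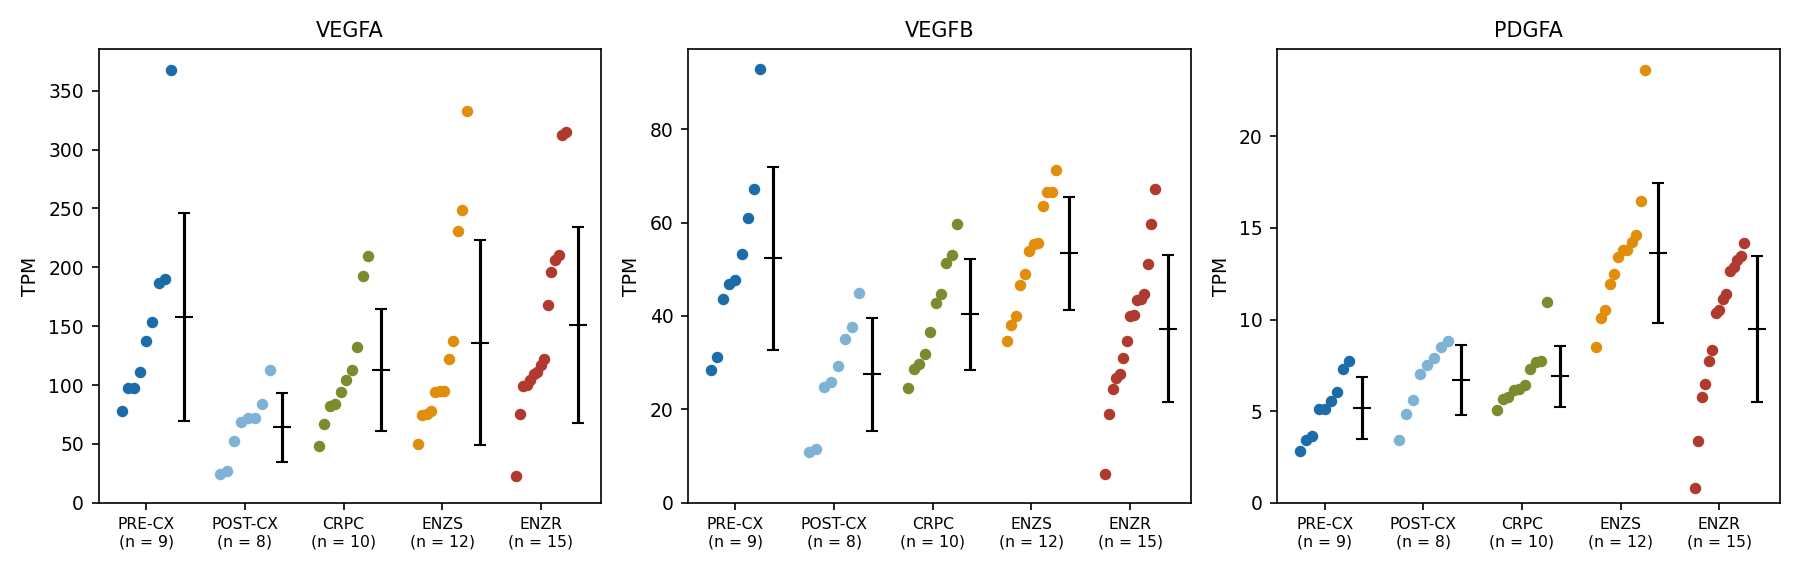
VEGFA, VEGFB and PDGFA in each tumour (points, sorted within a group) with the group mean and SD (bar at the right of each group), in TPM on axes that start at 0. POST-CX has the lowest mean of VEGFA (64.1 TPM) and of VEGFB (27.5 TPM), and ENZS the highest of PDGFA (13.6 TPM).

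PDGFA was the member that rose. It lies on chromosome 7, 497258 to 520700 (GRCh38), and its product binds the receptor encoded by PDGFRA. Its level was 2.81 to 7.71 TPM in PRE-CX with a median of 5.13 (mean 5.19 ± 1.69, SD, n = 9), and 8.51 to 23.61 TPM in ENZS with a median of 13.6 (mean 13.6 ± 3.84, SD, n = 12). All 12 ENZS tumours lay above the PRE-CX range. The log2 difference was 1.25 (SE 0.23, limma adjusted p 2.11e-05), against a median of 0.26 for all genes. In ENZR it ran from 0.80 to 14.16 TPM with a median of 10.5 (mean 9.49 ± 3.97, SD, n = 15). There 10 of 15 tumours lay above the PRE-CX range, and the tumour at 0.80 TPM was mouse 87, that with the lowest human share. The log2 difference was 0.65 (SE 0.22, limma adjusted p 0.0225), and it no longer passed without PRE-CX mouse 5 (0.57, limma adjusted p 0.0615).

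The PDGFA level in POST-CX depended on the scaling. POST-CX tumours ran from 3.43 to 8.84 TPM with a median of 7.28 (mean 6.71 ± 1.90, SD, n = 8), and CRPC tumours from 5.04 to 10.95 TPM with a median of 6.30 (mean 6.89 ± 1.68, SD, n = 10). With rescaled values the POST-CX mean was 9.20 TPM and the PRE-CX mean 5.76 TPM, a log2 difference of 0.57 (SE 0.21) given as a description, and the POST-CX group holds 2 tumours of low human share. CRPC minus PRE-CX was 0.37 (SE 0.24, limma adjusted p 0.436). ENZS exceeded CRPC by 0.88 (SE 0.23, limma adjusted p 0.00900), and 9 of 12 ENZS tumours lay above the CRPC range. ENZR exceeded CRPC by 0.27 (SE 0.22, limma adjusted p 0.598), which passed with rescaled values (0.50, limma adjusted p 0.0296) and without the 4 tumours of low human share (0.46, limma adjusted p 0.0442).

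Human genes that serve as markers of other cell types were measured in the same tumours as PDGFA. The summed level of 8 fibroblast markers ran from 3.78 to 13.14 TPM in PRE-CX, 8.61 to 88.18 TPM in CRPC, 15.99 to 216.17 TPM in ENZS and 5.63 to 75.85 TPM in ENZR. Of these 8 markers 4 were tested, and 3 of them (LUM, DCN and COL3A1) rose in each of CRPC, ENZS and ENZR against PRE-CX. Of all genes 5.55%, 30.3% and 17.6% were higher in the same order. The other tested marker, COL1A1 (median 6.3 TPM over all tumours), passed in none of these comparisons, and with rescaled values it was lower in CRPC. PDGFA did not pass in CRPC minus PRE-CX. PDGFRA, FAP and POSTN had a median of 0 TPM over all tumours. The summed level of 8 markers of pericytes and smooth muscle ran from 13.11 to 26.1 TPM in PRE-CX, 20.64 to 37.84 TPM in CRPC, 31.86 to 84.41 TPM in ENZS and 4.78 to 56.67 TPM in ENZR, with DES at a median of 0. For 12 endothelial markers it was 11.92 to 25.4 TPM in PRE-CX and 26.55 to 63.25 TPM in ENZS, most of it EGFL7, which was higher than in PRE-CX by 1.40 in ENZS (SE 0.24, limma adjusted p 3.67e-06) while the ENZR difference was 0.92 (SE 0.23, limma adjusted p 0.00149). The endothelial marker VWF went the other way, at -1.23 in CRPC (SE 0.25, limma adjusted p 4.85e-04), -0.98 in ENZS (SE 0.24, limma adjusted p 7.64e-04) and -1.41 in ENZR (SE 0.23, limma adjusted p 2.57e-06). For 8 blood cell markers it was 0.40 to 3.69 TPM in PRE-CX and 1.15 to 11.39 TPM in ENZS, with PTPRC, HBA1 and HBB at a median of 0. The part of these genes in the PDGFA result was not tested. All these values are human transcripts, and LNCaP cells were the only human cells put into the mice. The marker sums therefore do not measure the share of mouse stroma, vessels or blood, and the source of the marker reads was not tested. In bulk tumours, a shift among kinds of tumour cell and a change in RNA per cell cannot be told apart.

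The members' calls were set beside those of all genes, with ANGPT2 left out of the comparisons with PRE-CX. In ENZS minus PRE-CX, 1 of the 3 members tested was higher (PDGFA) and none lower, where 30.3% of all genes were higher and 8.18% lower. In ENZR minus PRE-CX the same count was 1 of 3, again PDGFA, where 17.6% were higher and 11.5% lower. In CRPC minus PRE-CX it was 0 of 3, where 5.55% were higher and 1.87% lower. In ENZS minus CRPC it was 1 of 4 higher, where 6.21% were higher and 2.71% lower. In ENZR minus CRPC it was 0 of 4, where 0.584% were higher and 2.52% lower. The balance of all genes depended on the scaling. With rescaled values 3662 genes were higher and 955 lower in ENZR minus CRPC (100 and 431 as deposited), and 7683 higher and 2398 lower in ENZR minus PRE-CX (3016 and 1965 as deposited). Centred on the median gene, 4452 were higher and 4637 lower in ENZS minus PRE-CX (5189 and 1401 as deposited), 1890 and 1624 in CRPC minus PRE-CX (951 and 321) and 1767 and 2227 in ENZS minus CRPC (1064 and 465). Rescaling moved the median log2 difference of all genes from 0.07 to 0.25 in ENZR minus PRE-CX and from -0.05 to 0.16 in ENZR minus CRPC.

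The relapse steps gave no call. In CRPC minus POST-CX, 0% of all genes passed in limma (1154 of 17131 had an unadjusted p under 0.05), and the 3 tested members had an adjusted p of 0.709 for VEGFA (log2 difference 0.83, SE 0.36), 0.709 for VEGFB (0.62, SE 0.28) and 0.952 for PDGFA (0.05, SE 0.25). The unadjusted p was 0.0235 for VEGFA and 0.0286 for VEGFB. In ENZR minus ENZS, 0.0175% of all genes passed, and the limma adjusted p was 0.783 for VEGFA (0.15, SE 0.29), 0.318 for VEGFB (-0.63, SE 0.23) and 0.291 for PDGFA (-0.60, SE 0.21). VEGFB was lower in ENZR than the ENZS median in 13 of 15 tumours. The 2 relapse steps were compared as (ENZR minus ENZS) minus (CRPC minus POST-CX), where 0.187% of all genes passed. VEGFB gave -1.25 (SE 0.36, limma adjusted p 0.0993). The VEGFB difference passed after centring on the median gene (-0.89, limma adjusted p 0.0365) and without ENZR mouse 87 (-1.09, limma adjusted p 0.0447). It was smaller and did not pass with rescaled values (-0.76, limma adjusted p 0.167) or without the tumours of low human share (-0.69, limma adjusted p 0.202). Without POST-CX mouse 91 it did not pass either (limma adjusted p 0.246). VEGFA gave -0.68 (SE 0.46, limma adjusted p 0.368) and PDGFA -0.65 (SE 0.32, limma adjusted p 0.252).

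**Figure D3:**
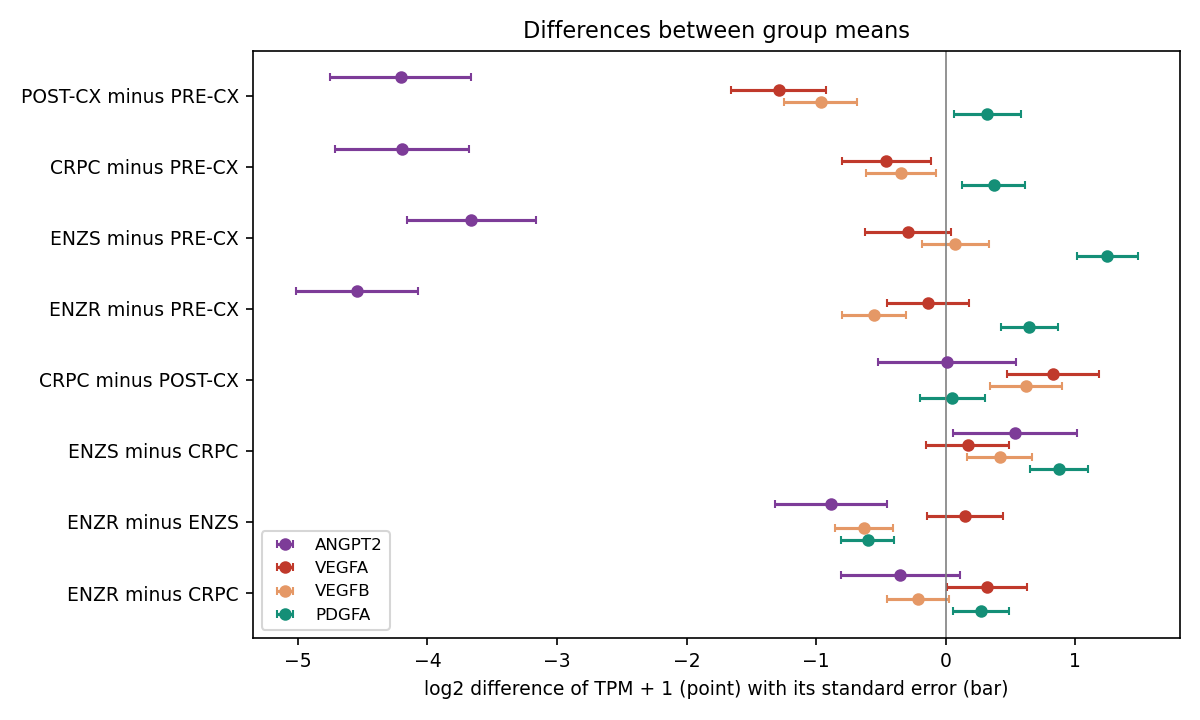
Log2 differences of TPM + 1 between group means (points) with their standard errors (bars) for the 4 members that passed the filter, over 8 comparisons. ANGPT2 lies between -4.55 and -3.66 in the 4 comparisons with PRE-CX, the comparisons that include the one its choice used, and PDGFA at 1.25 in ENZS minus PRE-CX.

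The balance between the human transcripts of the 2 best known factors moved with castration. Mouse transcripts of these factors are not among the values, so the balance in the whole tumour was not measured. The ratio of ANGPT2 to VEGFA, both per length, had a median of 0.70 in PRE-CX (range 0.41 to 1.55), 0.078 in POST-CX (0.014 to 0.32), 0.037 in CRPC (0.013 to 0.29), 0.057 in ENZS (0.0097 to 1.11) and 0.026 in ENZR (0.0015 to 0.19). No POST-CX, CRPC or ENZR tumour reached the lowest PRE-CX ratio. The ratio does not depend on the human share of a tumour, since both genes scale alike. It holds the fall of ANGPT2 that chose the set and is given with no test.

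ANGPT1, VEGFC, ANGPTL4 and PGF were close to absent among the human transcripts. ANGPT1, the stabilising angiopoietin, was listed at 0 in 45 of 54 tumours and reached 0.08 TPM at most. VEGFC, a factor for lymphatic vessels (chromosome 4, 176683538 to 176792922), was listed at 0 in 47 tumours and reached 0.05 TPM. ANGPTL4 (chromosome 19, 8364155 to 8374370), whose promoter window is shown above, reached 0.75 TPM in PRE-CX mouse 62 and had a median of 0.035 TPM over all tumours. PGF, placental growth factor (chromosome 14, 74941830 to 74955764), reached 0.39 TPM in ENZR mouse 94 and had a group mean between 0.06 and 0.17 TPM. None of these was tested, and TPM without read counts allow no upper limit for the zeros.

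Receptors for these ligands were nearly silent among the human transcripts. TEK, the TIE2 gene, had a group mean of at most 0.03 TPM, FLT1 (VEGFR1) of at most 0.03 TPM, KDR (VEGFR2) of at most 0.01 TPM and PDGFRA of at most 0.03 TPM. FLT4 (VEGFR3) reached a group mean of 0.29 TPM and PDGFRB of 0.48 TPM. NRP1, the VEGF co-receptor neuropilin 1, was the exception with 250.8 ± 75.5 TPM in PRE-CX (SD, n = 9) and 437.0 ± 128.3 TPM in ENZS (n = 12), a log2 change of 0.79 with SE 0.31 and an adjusted p of 0.0413 in limma. Of the 11 other VEGF and PDGF ligands and receptors 2 were tested (NRP1 and PDGFB). PDGFB did not pass in ENZS minus PRE-CX (0.21, SE 0.21, limma adjusted p 0.435). Of the 11 other angiopoietin and TIE genes 2 were tested, and PTPRB, a phosphatase that acts on TIE2, was higher in ENZS (0.70, SE 0.22, limma adjusted p 0.00732) and ENZR (0.54, SE 0.21, limma adjusted p 0.0394) than in PRE-CX, from a mean of 1.39 TPM. The other, ANGPTL2, did not pass in ENZS (0.48, SE 0.29, limma adjusted p 0.183) or ENZR (0.63, SE 0.28, limma adjusted p 0.0777). Of all genes 30.3% were higher in ENZS and 17.6% in ENZR than in PRE-CX.

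Other genes known to promote vessel growth moved in both directions. Of 25 other factors known to promote vessel growth 7 were tested. In ENZS minus PRE-CX 2 were higher and 1 lower, and in ENZR minus PRE-CX 1 was higher and 1 lower. Of all genes 30.3% were higher and 8.18% lower in the first comparison, and 17.6% and 11.5% in the second. With rescaled values 3 of the 7 were higher and 1 lower in ENZS, and 2 higher and 1 lower in ENZR. On that scale 8186 of all 17131 genes were higher and 2363 lower in ENZS, and 7683 and 2398 in ENZR. APLN, apelin, fell from 18.1 ± 6.02 TPM in PRE-CX (SD, n = 9) to 6.20 ± 6.76 TPM in ENZS (n = 12) (log2 change -1.88, SE 0.43, limma adjusted p 3.54e-04), and was -1.67 in ENZR (SE 0.41, limma adjusted p 0.00119). TYMP, thymidine phosphorylase, was higher in ENZS (1.11, SE 0.25, limma adjusted p 2.87e-04), and so was CCN1, a matrix protein (0.73, SE 0.24, limma adjusted p 0.0111). The list's median was 0.49 in ENZS and -0.04 in ENZR, beside 0.26 and 0.07 for all genes.

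Of 17 factors listed as restraining vessel growth 8 were tested. In CRPC 3 were higher than in PRE-CX and 1 lower, in ENZS 4 higher and 1 lower, and in ENZR 3 higher and 2 lower. Of all genes 5.55%, 30.3% and 17.6% were higher in the same order, and 1.87%, 8.18% and 11.5% lower. With rescaled values the counts were those as deposited except in ENZR, where 1 was lower, since ADAMTS1 no longer passed (limma adjusted p 0.0426 as deposited and 0.0516 rescaled). On that scale 2478, 8186 and 7683 of all 17131 genes were higher in CRPC, ENZS and ENZR, and 1017, 2363 and 2398 lower. COL18A1, the collagen from which endostatin is cut, rose from 3.76 ± 1.64 TPM in PRE-CX (SD, n = 9) to 15.3 ± 5.28 TPM in ENZS (n = 12), a log2 change of 1.79 with SE 0.25 and an adjusted p of 4.66e-08 in limma. TIMP2, an inhibitor of matrix metalloproteinases, was higher in ENZS (1.67, SE 0.27, limma adjusted p 1.49e-06). The gene that was lower in all 3 was VASH2, -1.30 in ENZS (SE 0.19, limma adjusted p 1.10e-07), which unlike its relative VASH1 is known mostly for promoting vessel growth. The list's median was 0.31, 0.70 and 0.42 in CRPC, ENZS and ENZR.

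Oxygen-regulated genes were compared because VEGFA and ANGPTL4 belong among them. Of 25 tested hypoxia targets other than the members, none passed in CRPC minus PRE-CX. In ENZS minus PRE-CX 10 were lower and 1 higher, and in ENZR minus PRE-CX 10 were lower and none higher. The share of all genes that was lower was 1.87% in CRPC, 8.18% in ENZS and 11.5% in ENZR. With rescaled values 3 of the 25 were lower in CRPC, 14 were lower and 2 higher in ENZS, and 10 were lower and 2 higher in ENZR. On that scale 1017, 2363 and 2398 of all 17131 genes were lower in CRPC, ENZS and ENZR, and 2478, 8186 and 7683 higher. LDHA, lactate dehydrogenase A, was -1.51 in ENZS (SE 0.48, limma adjusted p 0.00919) and -1.40 in ENZR (SE 0.45, limma adjusted p 0.0155), and PDK1, a kinase that restrains pyruvate dehydrogenase, was -1.34 in ENZS (SE 0.43, limma adjusted p 0.0112). The list's median was -1.21 in POST-CX, -0.45 in CRPC, -0.67 in ENZS and -0.72 in ENZR, each against PRE-CX. VEGFA stood at -1.29, -0.46, -0.29 and -0.14 in the same order.

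Among 10 tested genes of the HIF subunits and their regulators, EPAS1, the gene of HIF-2α, rose from 0.84 ± 0.38 TPM in PRE-CX (SD, n = 9) to 4.55 ± 2.28 TPM in ENZS (n = 12), by 1.52 (SE 0.22, limma adjusted p 2.40e-07), and was higher by 0.90 in ENZR (SE 0.21, limma adjusted p 9.23e-04). As deposited, 3 were higher in ENZS and 2 in ENZR, with none lower, where 30.3% and 17.6% of all genes were higher. With rescaled values 6 were higher and 1 lower in ENZS, and 7 higher and none lower in ENZR. On that scale 8186 of all 17131 genes were higher and 2363 lower in ENZS, and 7683 and 2398 in ENZR. HIF1A was -0.0039 in ENZS (SE 0.25, limma adjusted p 0.993). Of 9 tested targets of PPAR receptors, among which ANGPTL4 also counts, 1 was higher and 1 lower in ENZS than in PRE-CX, and 1 was higher and 2 lower in ENZR. The share of all genes that was lower was 8.18% in ENZS and 11.5% in ENZR. The list's median was 0.10 in ENZS, beside 0.26 for all genes.

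Within groups VEGFA followed the hypoxia targets and ANGPT2 did not pass. In total 25 relations within single groups were computed on log2(TPM + 1), with permutation p-values (exact for PRE-CX and POST-CX) adjusted over the 25, and 6 passed by Pearson's r. VEGFA with the mean of the 25 hypoxia targets gave r = 0.95 in CRPC (n = 10, permutation adjusted p 5.00e-04, rho 0.98, permutation adjusted p 7.50e-04), r = 0.91 in ENZS (n = 12, permutation adjusted p 5.00e-04, rho 0.72, permutation adjusted p 0.0663) and r = 0.93 in ENZR (n = 15, permutation adjusted p 5.00e-04, rho 0.91, permutation adjusted p 7.50e-04). Leaving out the 2 tumours farthest from the median hypoxia mean gave 0.90, 0.78 and 0.85. With rescaled values the ENZR relation was weaker, r = 0.70 (n = 15, permutation adjusted p 0.0254, rho 0.55, permutation adjusted p 0.157). In PRE-CX r was 0.80 (n = 9, exact permutation adjusted p 0.0480, rho 0.52, adjusted p 0.368) and fell to 0.28 without the 2 farthest tumours, so it rests on those. In POST-CX r was 0.86 (n = 8, exact permutation adjusted p 0.0233, rho 0.83, adjusted p 0.0769) but 0.42 with rescaled values (exact permutation adjusted p 0.534) and 0.71 without its 2 tumours of low human share (n = 6, exact permutation adjusted p 0.281).

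ANGPT2 with the hypoxia mean gave r between -0.21 and 0.53 over the 5 groups, with the androgen-induced mean between -0.13 and 0.55 and with VEGFA between -0.33 and 0.53, and none of these 15 passed by Pearson's r (lowest permutation adjusted p 0.372). In ENZR the values moved with the scaling. With rescaled values ANGPT2 had r = -0.75 with the hypoxia mean (n = 15, permutation adjusted p 0.0181, rho -0.66, permutation adjusted p 0.0526) and r = -0.63 with VEGFA (n = 15, permutation adjusted p 0.0467, rho -0.55, permutation adjusted p 0.157). Without the 2 ENZR tumours of low human share these were -0.64 (n = 13, permutation adjusted p 0.0688) and -0.68 (n = 13, permutation adjusted p 0.0480). ANGPTL4 with the hypoxia mean passed in PRE-CX (r = 0.89, n = 9, exact permutation adjusted p 0.0233, rho 0.88, adjusted p 0.0281, and r = 0.76 without the 2 farthest), at levels of 0.75 TPM and below. In POST-CX it had the opposite sign and did not pass (r = -0.78, n = 8, exact permutation adjusted p 0.0680, rho -0.79, adjusted p 0.109), and r was 0.17 in CRPC, 0.32 in ENZS and 0.12 in ENZR.

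**Figure D4:**
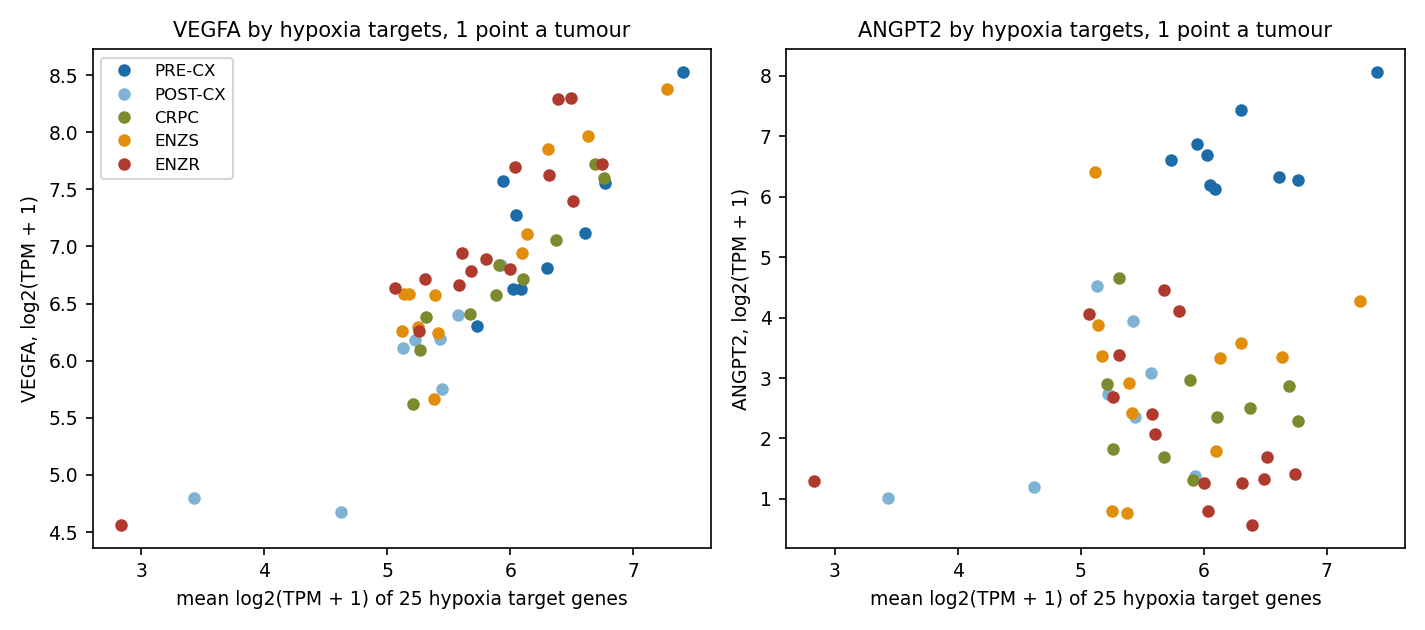
VEGFA (left) and ANGPT2 (right) in each tumour as log2(TPM + 1) against the mean log2(TPM + 1) of 25 hypoxia target genes, coloured by group. VEGFA lies along a rising band (r from 0.80 in PRE-CX to 0.95 in CRPC), and the 3 tumours at the lower left (hypoxia means of 2.83 in ENZR mouse 87, 3.43 in POST-CX and 4.62 in POST-CX) have low human shares. ANGPT2 is higher in PRE-CX than in every other tumour except ENZS mouse 17, which lies inside the PRE-CX range. That difference includes the one by which the gene was chosen.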

How the data were processed

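RNA-seq of 54 LNCaP xenograft tumours was used, 1 tumour per mouse. The authors checked reads with FastQC 0.11.9, trimmed them with Trim Galore 0.6.5, aligned them with STAR 2.7.2b to human GRCh38 and mouse GRCm38 together and quantified genes with RSEM 1.3.3, per the labels and the study's methods. The deposited values are TPM per human gene symbol with the mouse genes removed, so they sum to 12.1% to 97.5% of 1000000. TPM are relative to transcript length and to all transcripts of a library and hold no read counts, so no counting interval is given.

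Genes with at least 1 TPM in at least 8 tumours (17131 of 60642) were tested on log2(TPM + 1) with limma 3.58.1 (R 4.3.3, trend option), with 1 model holding a mean for each of the 5 groups (54 tumours), and Benjamini-Hochberg adjustment over all genes per comparison. The two-sided threshold was an adjusted p of 0.05 with no limit on size. The pseudocount understates changes of low genes. The fit was tested on simulated data. Relations within groups used two-sided permutation tests (numpy 2.4.6), exact for groups under 10 tumours and otherwise with 100000 resamples. Ranks and the adjustment of these p-values came from scipy 1.17.1.

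The members and gene lists were chosen with earlier results of these data known. No p is given for POST-CX minus PRE-CX, nor for ANGPT2 in any comparison with either of these groups. Besides the members, the text names of each list up to 4 genes that passed in a comparison it describes, by size of log2 difference, and the 5 genes most like ANGPT2 by each of 2 measures. KLK3, FKBP5, the receptors and non-passing list genes in the text were named after their values were seen. The labels give mice by number and no batch. Alternatives were rescaling to 1000000, centring on the median gene, a pseudocount of 0.1 TPM, no filter, leaving out 4 tumours under 70% human TPM, limma without trend and leaving out each tumour. Promoters came from RefSeq (GRCh38.p14) by gene symbol. Sequences of ANGPT1, ANGPT2 and VEGFA are not shown. Some genes of the lists are not reported here.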

Additional observations from a re-analysis of the deposited data

Results flagged for a closer look

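Within PRE-CX, POST-CX and CRPC, 12 sets of values (4 members in 3 groups) were examined for a tumour far from the others by Dixon's ratio. On TPM without a log, 3 stood out. The chance rate of about 1 in 20 holds for normally distributed values, so no excess over chance is read from these 3. ANGPT2 was 24.19 TPM in CRPC mouse 47, against 6.79 TPM in the next tumour. VEGFA was 368.0 TPM in PRE-CX mouse 62, against 189.73 TPM in the next, and this tumour also had the highest ANGPT2 of all (266.92 TPM). PDGFA was 10.95 TPM in CRPC mouse 89, against 7.75 TPM in the next. Without PRE-CX mouse 62, VEGFA in ENZR minus PRE-CX moved from -0.14 to 0.03. Without CRPC mouse 47, ANGPT2 in ENZR minus CRPC moved from -0.35 to -0.11 (limma adjusted p 0.948). The groups of 12 and 15 tumours were not examined in this way.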

How the results depend on the processing

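No paired analysis was possible because no mouse number is shared between groups. PDGFA passed in ENZS minus PRE-CX and in ENZS minus CRPC under each alternative run, and in ENZR minus PRE-CX under each but leaving out PRE-CX mouse 5. The count of tested members that passed rose from 1 to 2 in ENZR minus PRE-CX when centred on the median, with 0 to 2 when each tumour was left out in turn. It rose from 1 to 2 in ENZS minus CRPC when rescaled. In ENZR minus CRPC it rose from 0 to 1 when rescaled and to 1 without the 4 tumours under 70% human TPM. For the difference of the relapse steps it rose from 0 to 1 when centred, with 0 to 1 when each tumour was left out.

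Directions turned for differences that did not pass. VEGFB in ENZS minus PRE-CX was -0.18 when centred, with -0.021 to 0.19 over left-out tumours. VEGFA in ENZR minus PRE-CX was 0.11 when rescaled and 0.081 without the 4 tumours, with -0.24 to 0.038 over left-out tumours. PDGFA in CRPC minus POST-CX was -0.22 when rescaled, -0.11 when centred and -0.13 without the 4 tumours, with -0.056 to 0.11 over left-out tumours. VEGFB in ENZR minus CRPC was 0.060 when rescaled. For ANGPT2 the r with the androgen-induced mean was 0.050 in ENZS and -0.30 in ENZR when rescaled, and -0.29 in ENZR without the low tumours. Its r with the hypoxia mean in POST-CX was -0.13 when rescaled and -0.76 without the low tumours, and with VEGFA in POST-CX -0.43 without them. ANGPTL4 with the hypoxia mean in ENZR was -0.20 when rescaled. Mean PDGFA in POST-CX moved from 6.71 to 9.20 TPM when rescaled. The cause of these moves was not tested.

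Counts over all genes depended on the scaling. When rescaled, when centred and without the 4 tumours, they were 4596, 4114 and 4411 in POST-CX minus PRE-CX (741 as deposited), 3495, 3514 and 3876 in CRPC minus PRE-CX (1272), 10549, 9089 and 10250 in ENZS minus PRE-CX (6590), 10081, 8801 and 9720 in ENZR minus PRE-CX (4981), 8, 31 and 42 in CRPC minus POST-CX (0), 6549, 3994 and 5177 in ENZS minus CRPC (1529), 4617, 3256 and 2969 in ENZR minus CRPC (531) and 35, 516 and 122 for the relapse steps (32). Without a filter ENZR minus CRPC gave 261 and the relapse steps 3, and a pseudocount of 0.1 gave 21 for the relapse steps. ENZR minus ENZS (3) gave 0 or 1 under the alternatives other than leaving out single tumours. Without ENZR mouse 87 the count was 7796 in ENZR minus PRE-CX, 1118 in ENZR minus CRPC and 265 for the relapse steps. The lowest counts over left-out tumours were 278 in ENZR minus CRPC (without CRPC mouse 81, and 325 without ENZR mouse 98) and 6 for the relapse steps (without POST-CX mouse 48). TPM hold no depth, so precision rests on the spread between tumours.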
